A study of Mus musculus with 50 samples.

Results

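Single-base variants of Myc were described in plasma cell tumours of the mesenteric lymph node from IL6Myc mice, a transgenic line named for interleukin 6 and Myc. The members are all entries of the deposited variant table that are assigned to Myc and have 1 alternate allele, whatever their effect: 58 of 25624 such entries, all of them single-nucleotide variants (SNVs). Each tumour came from its own mouse, and exome calls of 44 of the 45 labelled tumours were used. Calls of tumour 4 and of the 5 kidneys of wild-type BALB/c mice were not analysed here, so inherited variants could not be separated from acquired ones by a control. The labels give no age and no treatment, and they do not say which promoter drives the transgenes or whether the Myc transgene is of mouse sequence. Reads of a transgene and of the native gene are therefore not told apart in these values.

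Myc is a transcription factor that pairs with Max through a helix-loop-helix and leucine zipper at its C-terminal end and drives growth and proliferation genes. Its N-terminal transactivation region holds conserved stretches called Myc boxes, of which box I contains the phosphorylated degron read by the ubiquitin ligase subunit Fbxw7 and box II binds coactivator complexes. In B cells the gene is a known target of translocation to antibody loci, and in B cell lymphomas its 5′ part is known to be mutated by AID (activation-induced deaminase), which diversifies antibody genes.

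Myc lies on chromosome 15 at 61985341 to 61990361 of GRCm38.p6, the assembly named mm10, on the plus strand as its coding changes read. By the deposited coding positions, translation was counted from base 61985922 in exon 1, exon 1 ends at 61985951 after 10 codons, and exon 2 begins at 61987507 after an intron of 1555 bp. Because the main AUG start of Myc lies in exon 2, the residue numbers here are those of the longer protein that starts upstream, and they exceed the usual numbering of the shorter protein. Domain names below are background knowledge placed by residue, and no protein sequence was used to check their limits.

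At least 1 Myc SNV was listed in 31 of 44 tumours (70.5%, exact Clopper-Pearson 95% interval 54.8 to 83.2%, which covers counting error only), in 64 calls. The 13 tumours without any were tumours 3, 7, 8, 12, 16, 22, 23, 24, 25, 28, 40, 44 and 45. Depth is unknown, so an absent call can mean the reference base or too few reads. Missense changes made up 26 SNVs in 22 tumours, synonymous changes 13 in 13 tumours (29.5%, 16.8 to 45.2%), 5′ UTR changes 18 in 11 tumours (25%, 13.2 to 40.3%) and the intron 1 change. No stop, frameshift or other insertion or deletion was listed in Myc. Of the 58 SNVs, 53 were private, that is, called in 1 tumour. They fell at 54 positions.

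Myc had the most tumours with a private SNV of the 4553 genes outside the antibody loci that had any. It had one in 28 tumours, followed by the predicted gene Gm13152 in 17, the giant muscle gene Ttn in 13 and the neuron navigator gene Nav1 in 11. Over these genes, 1.08% had a private SNV in at least 5 tumours. By number of private SNVs Myc ranked 2 with 53, and the 5 other genes with the most were of another kind. Unc80 had 62 and the urea cycle gene Cps1 had 43, each in 1 tumour, and the calcium channel gene Cacna1b had 32, of which 30 were in 1 tumour. Vps39, a subunit of a lysosomal tethering complex, had 30 in 1 tumour and Zfp106 had 30, of which 28 were in 1 tumour. Their median read shares, the share of reads at a site that carry the alternate base, were 47.3% to 50%, against 17.8% for private Myc SNVs. In Myc no tumour held more than 5 private SNVs.

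**Figure D1:**
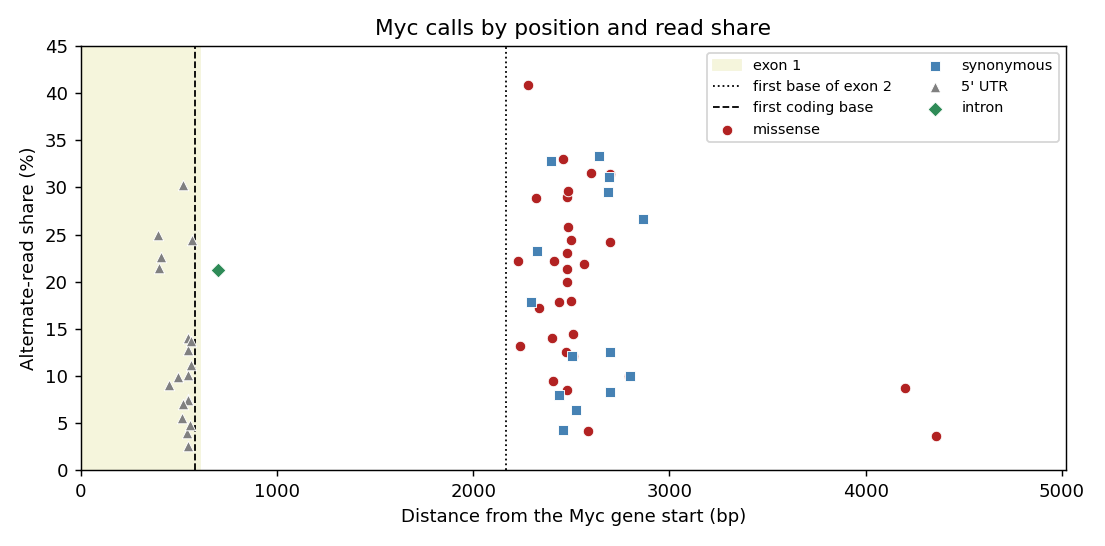
Each point is 1 of 64 Myc calls, with its distance from the gene start in bp on the x axis and its alternate-read share in percent on the y axis, coloured by effect. The calls form a group 392 to 700 bp from the start and a group 2226 to 2864 bp from it, with 2 missense calls of 8.70% and 3.66% at 4203 and 4359 bp.

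By distance from the gene start, 19 SNVs lay between 392 and 700 bp (positions 61985733 to 61986041, 6.15 per 100 bp of that span) and 37 lay between 2226 and 2864 bp (positions 61987567 to 61988205, 5.79 per 100 bp). Each span runs from the first to the last SNV of its group, so the SNVs themselves set the limits of these densities. The first group comprised the 5′ UTR of exon 1 and the start of intron 1, and the second was the coding part of exon 2. The capture targeted exons, so the bare stretch of intron between them cannot be read. Exon 3, which encodes the nuclear localisation signal and the DNA-binding and dimerisation domain, held only 2 SNVs, each in 1 tumour. Tyr334Cys, at 61989544, was called in tumour 41 at a read share of 8.70%. Lys386Met, at 61989700 in the helix-loop-helix domain, was called in tumour 36 at 3.66%. Both were low beside the median of all Myc calls, 15.84%.

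The missense changes lay mostly in the N-terminal transactivation region: 21 of 26 lay at or before Ser155, in 18 tumours. Of the 13 synonymous SNVs, 6 lay after Ser155 and the others at or before it, so synonymous changes also fell there. The difference between the kinds was not tested. Ser155 is itself the residue of a listed missense SNV and was not checked as a domain limit. The stretch from Glu100 to Ser130, between Myc box I and Myc box II, was described together, with limits chosen after the values were seen. These 31 codons held 14 of the 39 coding SNVs, 10 of them missense, and 13 tumours had a missense change there. The other 16 missense SNVs lay elsewhere in the protein.

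Leu115, in that stretch, was changed in 5 of 44 tumours, more than any other residue (11.4%, exact 95% interval 3.79 to 24.6%). It was picked for having the most tumours, and the interval makes no allowance for that choice. Leu115Val (c.343C>G, position 61987819) was the most frequent Myc SNV and was called in tumour 10 at 23.08%, tumour 33 at 20% and tumour 31 at 8.51%. Leu115Pro (c.344T>C, the next base, 61987820) was called in tumour 37 at 28.99% and in tumour 1 at 21.31%. The 5 carriers were separate mice, and in only 1 of them, tumour 31, was the share below 20%.

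Other changes of the same stretch surrounded Leu115. Glu116Asp was called in tumour 11 at 25.76% and Met117Thr in tumour 37 at 29.58%. Leu121Ser was called in tumour 43 at 24.44% and Leu122Val in tumour 35 at 17.95%. Asp125Val (c.374A>T, 61987850) was called in tumour 18 at 14.49% and in tumour 42 at 12.12%. These 5 residues had no further change listed. On the N-terminal side, Asn108Lys was called in tumour 5 at 32.98%, Asp102Asn in tumour 19 at 17.81% and Asp113Gly in tumour 14 at 12.50%. At the base of Asn108Lys (61987800), tumour 6 carried the synonymous C>T at 4.29%, so 1 position held different alternate bases in different mice. Glu100, Gly123 and Ser130 had only synonymous SNVs, at 8%, 12.12% and 6.41%.

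In and beside Myc box I, 3 SNVs were listed. Asp63Tyr was called in tumour 39 at 28.83% and Phe68Ile in tumour 21 at 17.19%, while the synonymous Ile64 change was called in tumour 5 at 23.29%. No variant was listed between Phe68 and Ser88, the stretch that holds the threonine and serine of the Fbxw7 degron. The calls resumed with Ser88 (synonymous, tumour 43, 32.76%), Tyr89Cys (tumour 18, 14%), Ala91Val (tumour 15, 9.43%) and Val92Gly (tumour 21, 22.22%).

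Myc box II held 3 missense SNVs and no synonymous one. Ile144Ser was called in tumour 35 at 21.92% and Ser155Ala in tumour 37 at 31.48%, whereas Met150Val in tumour 17 had a share of 4.17%. Each was in 1 mouse.

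Before box I, the N-terminal end carried Tyr31Asn in tumour 20 at 22.22%, Pro36Ser in tumour 33 at 13.22% and Gln49His (c.147G>T, 61987623) in tumour 19 at 40.86%. Gln49His was the Myc call with the highest read share and the only one above 40%. The synonymous Glu54 change was called in tumour 10 at 17.86%. After box II, the rest of exon 2 had 6 synonymous and 3 missense SNVs. From His184 to Ser188, 3 of 5 SNVs were synonymous. Position 61988037, in the codon of Cys187, was changed in 3 tumours: to Cys187Trp in tumour 2 at 24.24% and without a residue change in tumour 27 at 12.50% and tumour 31 at 8.33%. The base after it was changed to give Ser188Ala in tumour 43 at 31.43%. Ser219Arg, in tumour 34 at 10%, was the last missense change of exon 2, and the synonymous Glu243 change, in tumour 14 at 26.67%, was the last SNV of that exon.

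The 5′ UTR held 18 SNVs, and 178 bp is the span from the first to the last of them, not the length of the UTR. The first lay 392 bp from the gene start, and the coding start lies 581 bp from it. Of the 18 SNVs, 10 lay in the 28 bases from c.-39 to c.-12, just before the coding start, in 8 tumours. The limits of that window were chosen after the positions were seen. Adjacent positions 61985886 and 61985887 carried 4 SNVs. At the first, c.-36G>C was called in tumour 35 at 14.06% and in tumour 2 at 10.13%, and tumour 2 also carried c.-36G>A at 2.53%. At the second, c.-35C>T was called in tumour 9 at 12.75% and c.-35C>G in tumour 5 at 7.59%. These were 4 separate mice at a pair of neighbouring bases, all with shares below 15%. The intron change, c.30+90C>G, was called in tumour 13 at 21.21% and was the only Myc SNV of that tumour.

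Read shares of the 64 calls ran from 2.53% to 40.86%, with a median of 15.84% and quartiles of 9.35% and 24.44%. No call reached 45%, and 6 were below 5%. A share of at least 20% was seen in 28 calls of 16 tumours and a share of at least 30% in 8 calls of 5 tumours. By effect, the medians were 20.7% for 30 missense calls, 15.2% for 14 synonymous calls and 10.1% for 19 calls of the 5′ UTR.

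**Figure D2:**
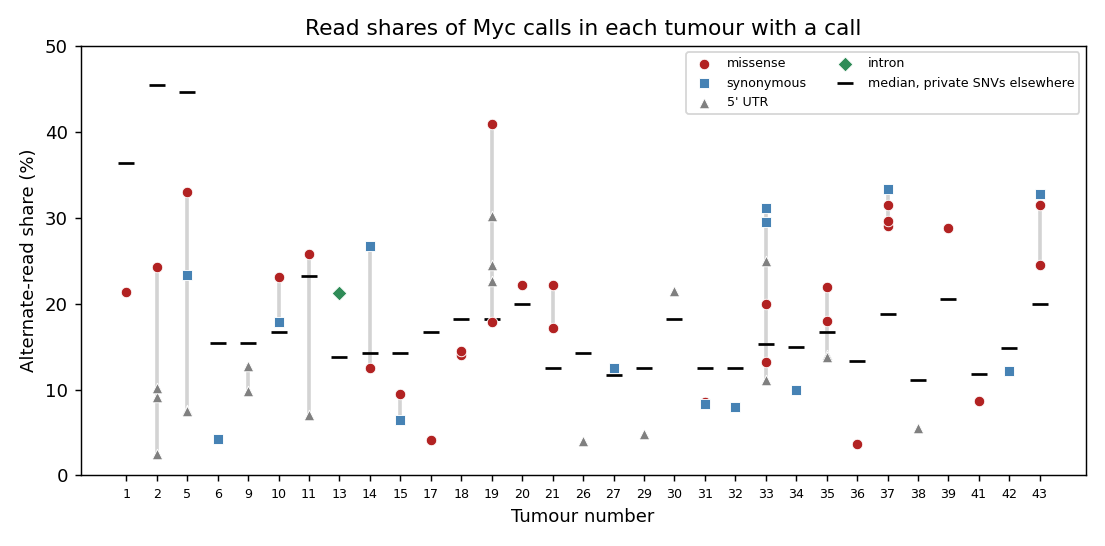
Each column is 1 of the 31 tumours with a Myc call, with the read share of each call in percent on the y axis, coloured by effect, and a grey bar from the lowest to the highest. Black dashes mark the median share of the tumour's private SNVs in other genes and regions, antibody loci left out, which lay above every Myc call in 17 of the 31 tumours, below every one in 9 and within their range in 5.

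Within tumours, the difference in read share between private Myc SNVs and other private SNVs was smaller than the spread between tumours. The per-tumour median was 15.02% ± 8.63 in Myc and 17.98% ± 8.19 outside Myc and the antibody loci (SD, n = 28), a mean difference of -2.96 percentage points ± 11.1 (SD). Myc was higher in 12 tumours and lower in 16 (two-sided sign-flip permutation test, p = 0.177; Benjamini-Hochberg adjusted p = 0.31 over the 7 tests made here). The result depended on how the comparison was set up. Against exonic private SNVs only, the difference was 0.797 points. With means in place of medians it was -8.04 points (adjusted p = 0.00098). Tumours 2 and 5 had the largest differences, -36.4 and -29.2 points, and without them the mean difference was -0.659 points (n = 26). Among tumours titled 1501 to 1592 the mean difference was -1.29 points, and among those titled 1601 on it was -0.12 points.

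In the 6 tumours with both kinds, coding Myc SNVs had a higher median read share than those of the 5′ UTR. The per-tumour medians were 24.2% against 9.09% in tumour 2, 28.1% against 7.55% in tumour 5 and 25.8% against 6.98% in tumour 11. They were 29.3% against 24.4% in tumour 19, 24.8% against 18.1% in tumour 33 and 19.9% against 13.9% in tumour 35. All 6 differences had the same sign, but the lowest coding median, of tumour 35, was below the highest noncoding median, of tumour 19. Single calls overlapped within tumours 19 and 33, where Asp102Asn (17.81%) and Pro36Ser (13.22%) were below c.-169C>T (22.58%) and c.-189C>T (25%). In the other tumours every coding call was above every 5′ UTR call. The mean was 25.4% ± 3.31 for coding and 13.3% ± 6.90 for noncoding SNVs (SD, n = 6), a difference of 12.03 points ± 6.98. The exact two-sided sign-flip p was 0.0313, the smallest that 6 tumours allow, and it did not pass after adjustment (adjusted p = 0.109).

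**Figure D3:**
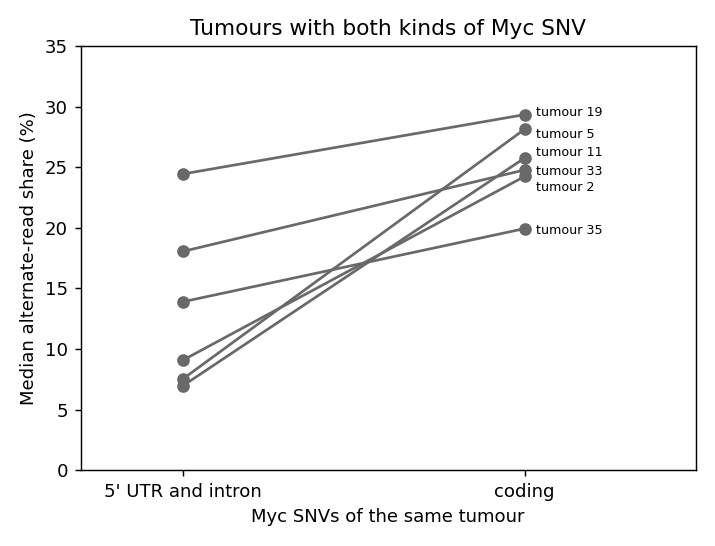
Lines join the median alternate-read share, in percent, of the 5′ UTR and intron SNVs and of the coding SNVs of Myc in each of the 6 tumours that had both. Coding medians lie between 19.9% and 29.3% and noncoding medians between 6.98% and 24.4%.

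Between missense and synonymous SNVs of the same tumour, the difference in share was smaller than the spread. In the 10 tumours with both, the medians were 18.3% ± 9.29 for missense and 20.1% ± 10.5 for synonymous SNVs (SD, n = 10). The missense share was higher in 4 tumours, lower in 4 and equal in 2 (sign-flip permutation test, p = 0.466, adjusted p = 0.653). Counted over SNVs, Myc had 2 missense changes for each synonymous one. Among private SNVs the ratio was 1.92 in Myc (23 and 12) and 1.66 elsewhere (1221 and 737). Synonymous SNVs stood without any missense SNV in 3 tumours.

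Several Myc SNVs in the same tumour were common. Of the 31 tumours, 14 had 1, 10 had 2, 1 had 3, 4 had 4, 1 had 5 and 1 had 6, so 17 of 44 tumours had over 1 (38.6%, exact 95% interval 24.4 to 54.5%). Tumour 33 had the most. Its 6 calls were c.-189C>T at 25%, c.-20C>T at 11.11%, Pro36Ser at 13.22%, Leu115Val at 20%, and the synonymous changes of His184 and Ser185 at 29.55% and 31.11%. Of these 6 changes 5 were C>T, and the read shares covered a range of 20 points. Tumour 19 had 5 calls: c.-169C>T at 22.58%, c.-57C>G at 30.26%, c.-12G>A at 24.44%, Gln49His at 40.86% and Asp102Asn at 17.81%. Tumour 37 carried only exon 2 changes, and its 4 calls (Leu115Pro, Met117Thr, Ser155Ala and synonymous Tyr168) lay between 28.99% and 33.33%.

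SNVs close together in a tumour often had near-equal read shares. Over 62 pairs of calls of the same tumour the median difference was 6.71 points, and over 10 pairs within 50 bp, 1 of them the alternate bases of 1 position, it was 1.08 points. In tumour 42, synonymous Gly123 and Asp125Val, 5 bp apart, were both at 12.12%. In tumour 34, Ser219Arg and synonymous Lys222, 9 bp apart, were both at 10%. In tumour 37, Leu115Pro and Met117Thr, 6 bp apart, were at 28.99% and 29.58%, and in tumour 5, c.-35C>G and c.-33C>T were at 7.59% and 7.5%. The table gives no phase, so whether such pairs lie on the same molecules is not known. Pairs over 50 bp apart differed by a median of 8.02 points, and pairs of different tumours by 9.7 points. Near pairs share the reads that cover them, so these medians are given as a description with no test.

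**Figure D4:**
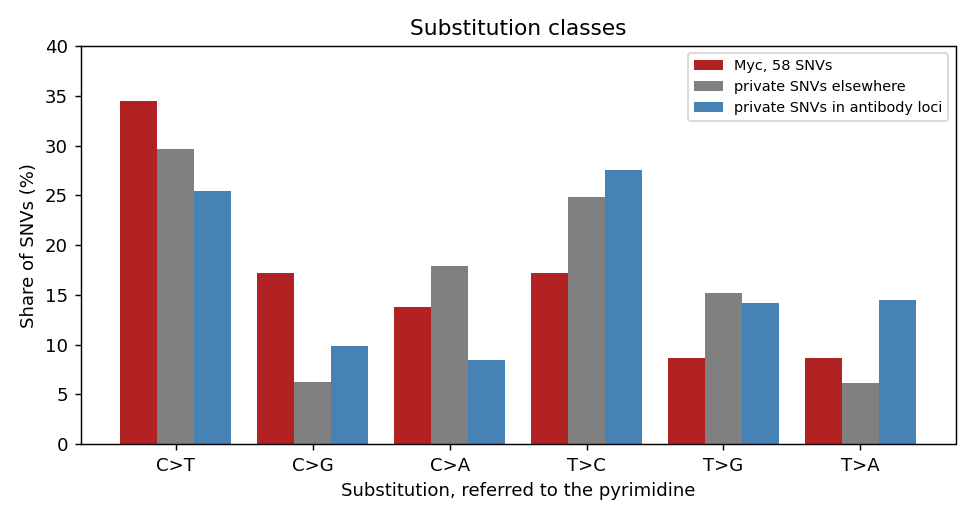
Bars give the share of SNVs, in percent, in each of 6 substitution classes referred to the pyrimidine base, for the 58 Myc SNVs, private SNVs elsewhere and private SNVs of the antibody loci. C>G made up 17.2% in Myc, 6.24% elsewhere and 9.89% in the antibody loci. The Myc bars include SNVs called in several tumours.

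By substitution class, 38 of the 58 Myc SNVs (65.5%) changed a C:G pair, against 53.8% of 9567 private SNVs elsewhere, antibody loci left out. C>T was the most frequent class with 20 SNVs (34.5%, against 29.7%). C>G made up 17.2% in Myc and 6.24% elsewhere, with 10 and 597 SNVs. The Myc shares cover all 58 SNVs, private or not. Among the C>G changes of Myc, c.-36G>C was called in 2 tumours and Leu115Val in 3. C>A made up 13.8% in Myc and 17.9% elsewhere, and T>G 8.62% and 15.2%. On the coding strand, 25 changes started from C, 13 from G, 10 from A and 10 from T. In exon 1 and intron 1, 17 of 19 SNVs changed a C:G pair, and in exon 2, 21 of 37 did. Base composition was not available and was not corrected for.

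Per tumour, the shares of C:G pairs and of transitions were tested, and both differences were within the spread. The single classes, C>G among them, were not tested per tumour. C:G pairs made up 54.8% ± 46.2 of a tumour's private Myc SNVs and 53.1% ± 7.41 of its private SNVs elsewhere (SD, n = 28; sign-flip permutation test, p = 0.847, adjusted p = 0.91). Transitions made up 52.4% ± 43.6 and 53.4% ± 8.79 (p = 0.91, adjusted p = 0.91). Most tumours had only 1 or 2 Myc SNVs, so single tumours sit at 0 or 100% and the spread is wide.

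AID is known to prefer C in the motifs AAC, AGC, TAC and TGC, and the same motifs on the other strand read GTT, GCT, GTA and GCA with the change at G. No genome sequence was used, but the deposited residue and base changes fix the codon at some sites, so the bases beside the changed one could be read where they fall within it. This step was added after the data were seen. Of 21 coding Myc SNVs at C:G pairs, 11 could be read, and 6 of these lay in one of the motifs (54.5%). Of 1104 coding private SNVs at C:G pairs elsewhere, 325 could be read and 60 lay in a motif (18.5%). Among variants shared by 2 or more tumours, 70 of 444 did (15.8%). The 6 in Myc were both changes of the AAC codon of Asn108, both changes of the TGC codon of Cys187, Ser219Arg in an AGC codon and the synonymous Tyr168 change in a TAC codon. The changes of Asn108 share a single base, as do those of Cys187, so the 6 SNVs are not 6 separate sites. The Myc SNVs read here were not limited to private ones, and the synonymous Cys187 change was called in 2 tumours. The 5 outside the motifs were Asp63Tyr, Asp102Asn and the synonymous changes of Ile64 (ATC), Ser88 (TCC) and His184 (CAC).

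The same reading was made for A:T pairs, where a change of A after A or T (AA or TA, on the other strand TT or TA) is the known preference of the error-prone polymerase eta. Of 18 coding Myc SNVs at A:T pairs 13 could be read and 7 lay in such a pair of bases (53.8%), against 184 of 372 private SNVs elsewhere (49.5%). A match is a description of the letters, and the readable sites are a fixed part of the codon, so these shares do not represent all sites. They were not tested, because SNVs of 1 tumour are not independent.

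The number of Myc SNVs per tumour was set against the number of private SNVs in the antibody loci Igh, Igk and Igl, which the same tumours carry. Pearson's r was 0.259 (permutation p = 0.092, adjusted p = 0.215) and Spearman's rho was 0.364 (p = 0.0163, adjusted p = 0.109), over 44 tumours. Without tumour 19, farthest from the median of the antibody-locus count, and tumour 44, the next farthest together with 5 tied tumours, r was 0.139, so the relation rests in part on those tumours. For any of the 6 tied tumours r lay between 0.0929 and 0.155. By blocks of sample titles, r was 0.617 in the 18 tumours titled 1501 to 1592 (p = 0.00444, adjusted p = 0.0311) and 0.0733 in the 22 titled 1601 on (p = 0.762). The 4 tumours titled up to 1293 are too few for a value. Tumour 33, with 6 Myc SNVs, had 2 private SNVs in the antibody loci, and without it r was 0.381 (adjusted p = 0.0418).

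**Figure D5:**
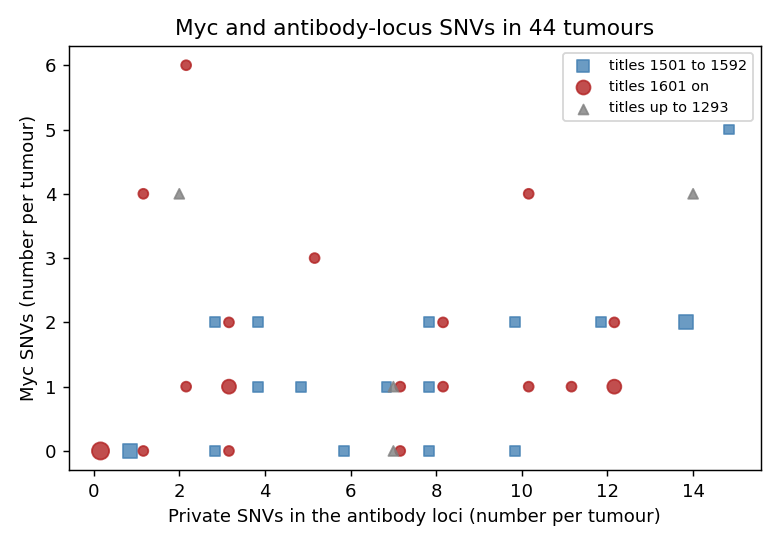
The x axis is the number of private SNVs in the antibody loci of a tumour and the y axis its number of Myc SNVs. Marker shape and colour give the block of sample titles, marker area the number of tumours at that point, and blocks are shifted slightly sideways. Tumour 33, with 6 Myc SNVs and 2 antibody-locus SNVs, and tumour 19, with 5 and 15, lie far apart.

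Against private SNVs elsewhere, antibody loci left out, r was 0.362 (permutation p = 0.025, adjusted p = 0.109) and rho was 0.258 (p = 0.0901, adjusted p = 0.21). Tumours 2 and 5, each with 4 Myc SNVs, had the most private SNVs elsewhere, 1413 and 741. Both lie in the block of titles up to 1293, and without them the pooled r was 0.107 (p = 0.505). The other blocks do not hold them, and there r was 0.405 for titles 1501 to 1592 and 0.324 for titles 1601 on, values near the pooled 0.362, of which neither passed. Carriers of a Myc SNV were found in every block: 3 of 4 tumours up to 1293, 12 of 18 from 1501 to 1592 and 16 of 22 from 1601 on. The median number of private SNVs elsewhere was 553.5, 224 and 117.5 in these blocks.

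Among 48 genes with a private SNV in at least 5 tumours, Gm13152, Nav1 and the kinase gene Pim1 had carrier tumours most like those of Myc by the Jaccard index, the shared tumours over all tumours of either gene. It was 0.324 for Gm13152, with 11 shared tumours of its 17, 0.3 for Nav1 with 9 of 11, and 0.25 for Pim1 with 7 of 7. Pim1 encodes a serine kinase and is a known target of aberrant somatic hypermutation. Its 10 private SNVs comprised 4 missense and 4 synonymous changes at a median read share of 26.5%. Myc was privately mutated in 28 of all 44 tumours, and the overlaps were not tested.

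Of 36 listed Myc partners, antagonists and regulators, 4 (11.1%) had a protein-altering variant, each such variant private. Over the 21899 protein-coding genes of RefSeq other than Myc, matched by symbol and with no regard to gene length, the share was 7.42%. Pim1 had 4 in 3 tumours: Lys24Asn at 9.52%, Ile66Leu at 5.88%, His68Tyr at 26.9% and Pro81Ser at 11.1%. Mga, which encodes a Max partner that represses Myc targets, had 3, all in tumour 2, the tumour with the most private SNVs, at 40.5% to 46.0%. Huwe1, a ubiquitin ligase gene, had Thr1663Ala in tumour 11 at 43.9% and Arg3782His in tumour 5 at 43.2%. Usp28, a deubiquitinase gene that opposes Fbxw7, had Ala453Val in tumour 44 at 4.55%. A variant of any kind was listed in 15 of the 36 (41.7%), against 28% of all these protein-coding genes, and the 21 without one included Fbxw7, Mycn and Mycl. Max had 1 variant, which did not alter the protein.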

How the data were processed

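Exons were enriched with Agilent's 50 Mb SureSelect mouse set and variants were called with GATK on mm10, per the labels and the submitters' processing notes. Aligner, versions, filters and annotation tool: not given in the sources used here. In the deposited table each tumour cell holds the percent of reads with the alternate base, as read from the values, or a dot, and a deposited column holds a count of tumours. Of 25823 entries, 199 with several alternate alleles were left out, among them 1 of Myc, whose alleles each had an entry of their own. Tumours are numbered in accession order. The members, lists and rules were chosen with earlier results of these data known.

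Read depth is unknown, so no interval was set on a read share. Per-tumour differences were tested by two-sided sign-flip permutation and counts by permuted correlations (100000 resamples, exact below 10 tumours), with Benjamini-Hochberg adjustment over 7 tests and a threshold of 0.05. The scripts were tested on simulated data (Python 3.11.15, SciPy 1.17.1). Individual variants were to be named if in several tumours, at 40% or more, outside the position groups or in the most mutated tumours, and the others were named after their values were seen. The planned search for protein motifs was not run. Other genes named are the 5 with the most private SNVs, the 3 most like Myc by carriers, and altered genes of the Myc list. Ttn was named after its values were seen. Alternatives were read share minima, leaving out C>A or certain tumours, title blocks, variants in up to 5 tumours, and other scales.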

Additional observations from a re-analysis of the deposited data

How the results depend on the processing

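A minimum read share of 20% left 26 Myc SNVs, 16 tumours with one and 13 with a missense one, and a minimum of 10% left 42, 21 and 17. The read share difference between Myc and other private SNVs passed at -12.2 points with the 20% minimum, -12.8 with variants in up to 5 tumours and -8.04 with means. It was 0.797 against exonic SNVs, a setting added after seeing the data. In the remaining runs it did not pass, and it lay between -5.31 points (without C>A SNVs) and -0.12 (titles 1601 on). Without tumours 2 and 5 the read share difference was -0.659 points, and in titles 1501 to 1592 it was -1.29. The correlation with antibody-locus SNVs passed with a read share minimum of 10% (0.403) or 20% (0.434), without tumour 33 (0.381) and in titles 1501 to 1592 (0.617), and that with SNVs elsewhere passed without tumour 33 (0.446). The C:G difference was 1.66 points and turned to -0.0887 without tumour 33, -1.88 without tumours 2 and 5, -9.52 in titles 1601 on and -3.64 against exonic SNVs. The transition difference was -0.983 points and turned to 1.77 without tumours 2 and 5 and 14.7 in titles 1501 to 1592. Causes of these changes were not tested. The coding against noncoding difference stayed above 0 in each alternative run, between 5.32 and 13.1 points. It passed in none after adjustment, but these runs held 2 to 5 tumours, too few for the exact test to reach the threshold. All 6 tumours were above 0 in the main run, so leaving out tumours or taking title blocks alone could not turn the sign. Only the read share minima and leaving out C>A SNVs could have done so. Leaving out C>A SNVs moved no count by over 1.5 times and no test past the threshold. Unknown depth limits all read shares. No paired analysis was possible because tumours and kidneys share no animal and kidney calls were not analysed here.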
